A study of Mus musculus with 18 samples.

Results

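The 6 genes described here encode the angiopoietins Angpt1 and Angpt2, the Tie receptors Tek (Tie2) and Tie1, the Tie2-directed phosphatase Ptprb (VE-PTP) and the matrix protein Svep1 (polydom). They are 6 of the 23238 gene symbols in the count tables of 18 mouse RNA libraries, taken by symbol, and their levels in these same libraries were already known when they were chosen. Their levels and differences are therefore given as a description, and how many of them a fit over all genes called is counted once, with nothing read from it. The libraries came from the small intestine of adult C57BL/6J mice and hold 2 sorted populations: PDGFRβ+ intestinal stromal cells (IntSCs) and lacteal lymphatic endothelial cells (LECs), from the lymphatic capillary in the centre of each intestinal villus.

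All 4 groups are labelled with the PDGFRb+-CreERT2-Tomato+ genotype, a tamoxifen-inducible Cre recombinase driven by Pdgfrb together with a red reporter. The KO groups additionally carry Lats1f/f and Lats2 f/f, the floxed genes of the kinases that restrain YAP and TAZ in the Hippo pathway. There were 6 WT IntSC, 5 KO IntSC, 4 WT LEC and 3 KO LEC libraries. The study describes the controls of this sequencing as reporter mice with Cre, and the KO mice as their offspring with the floxed line, so that Cre and reporter were shared by all groups. Pdgfrb is used by fibroblasts, pericytes and smooth muscle cells, so Cre acts in several stromal cell types and LECs of KO mice are not its target. The labels tie no library to an animal, while the study counts as many mice per group as there are libraries, pooled from several experiments. Which library came from which experiment is not given in the labels, so p-values measure the spread between libraries with that of the experiments in it.

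Angpt1 is the steady agonist of Tie2 and is made mainly by perivascular and other mesenchymal cells. Angpt2 is stored in and released from endothelial cells, antagonises Angpt1 in many blood vessels, can activate Tie2 in lymphatic endothelium and is needed for normal lymphatic development. Tie1 binds no angiopoietin with high affinity itself and modulates Tie2, Ptprb removes phosphate from Tie2, and Svep1 is a secreted protein of mesenchymal cells that lymphatic vessels require for remodelling.

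In GRCm38, with GENCODE vM21 spans, Angpt1 lies at chr15:42424723-42676977 and Angpt2 at chr8:18690263-18741562, both on the minus strand. Tek lies at chr4:94739289-94874976 on the plus strand, Tie1 at chr4:118471191-118490061 on the minus strand, Svep1 at chr4:58042442-58206859 on the minus strand and Ptprb at chr10:116275523-116389535 on the plus strand. Angpt2 overlaps Mcph1 on the opposite strand, and whether reads were counted by strand is not given in the sources used here, so reads of this pair could be mixed. In counts per 1000000 counts of a library (CPM), Mcph1 stood at 11.7 CPM or less in every library and at 0 in all 3 KO LEC libraries, where Angpt2 was at its highest mean.

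RefSeq promoter windows of 250 bases (GRCm38.p6) were matched for 3 of the 6 genes, Tek, Tie1 and Svep1. Only the Tek and Tie1 windows held a stretch outside every annotated transcript of the gene. Both stretches are shown and run 5′ to 3′ on the strand of the gene. No such stretch was left for Svep1. The letters GGAAG and their reverse complement CTTCC, the core of sites for ETS factors, are in capitals. GGAATG and its reverse complement CATTCC, a core for the TEAD partners of YAP and TAZ, were also searched on both strands.
Tek, chr4:94739039-94739085: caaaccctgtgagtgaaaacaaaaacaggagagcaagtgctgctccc
Tie1, chr4:118490062-118490099: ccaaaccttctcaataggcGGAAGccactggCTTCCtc

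The Tie1 stretch of 38 bases held the ETS letters at 2 positions, 1 on each strand, and the Tek stretch of 47 bases held neither set of letters. Among 32851 RefSeq promoters, 12.5% held the ETS letters in the same 38 positions and 15.6% in the same 47, while 1.93% and 2.41% held the TEAD letters. A match of letters is a description of the sequence only.

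The libraries held 5361250 to 10549233 counts, so that 3 reads, the limit allowed by a count of 0, correspond to 0.281 to 0.633 CPM. These limits, and the interval of a ratio of counts, cover counting error only. The sorted identities could be checked with marker genes. The summed level of 8 LEC markers (Prox1, Lyve1, Flt4, Ccl21a, Mmrn1, Reln, Nrp2, Tbx1) was 9241 to 14834 CPM in LECs and 117 to 353 CPM in IntSCs. The summed level of 8 fibroblast markers was 7585 to 16966 CPM in IntSCs and 304 to 2086 CPM in LECs, with WT LEC 1 at 2086 and the other WT LEC libraries at 629 to 688. Smooth muscle and pericyte markers summed to 1373 to 2045 CPM in WT IntSCs, 1561 to 2797 CPM in KO IntSCs and 151 to 315 CPM in LECs. Their means were 1783 CPM in WT and 2303 CPM in KO IntSCs. Epithelial markers summed to at most 106 CPM and leukocyte markers to at most 30.01 CPM. Fibroblast markers were thus present in every LEC library, and endothelial markers in every IntSC library. The targeted genes gave no check of the genotype, since Lats1 averaged 17.5 CPM in WT and 16.0 CPM in KO IntSCs and Lats2 72.9 and 114 CPM. Reads from the 3′ end of a transcript need not cover deleted exons.

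**Figure D1:**
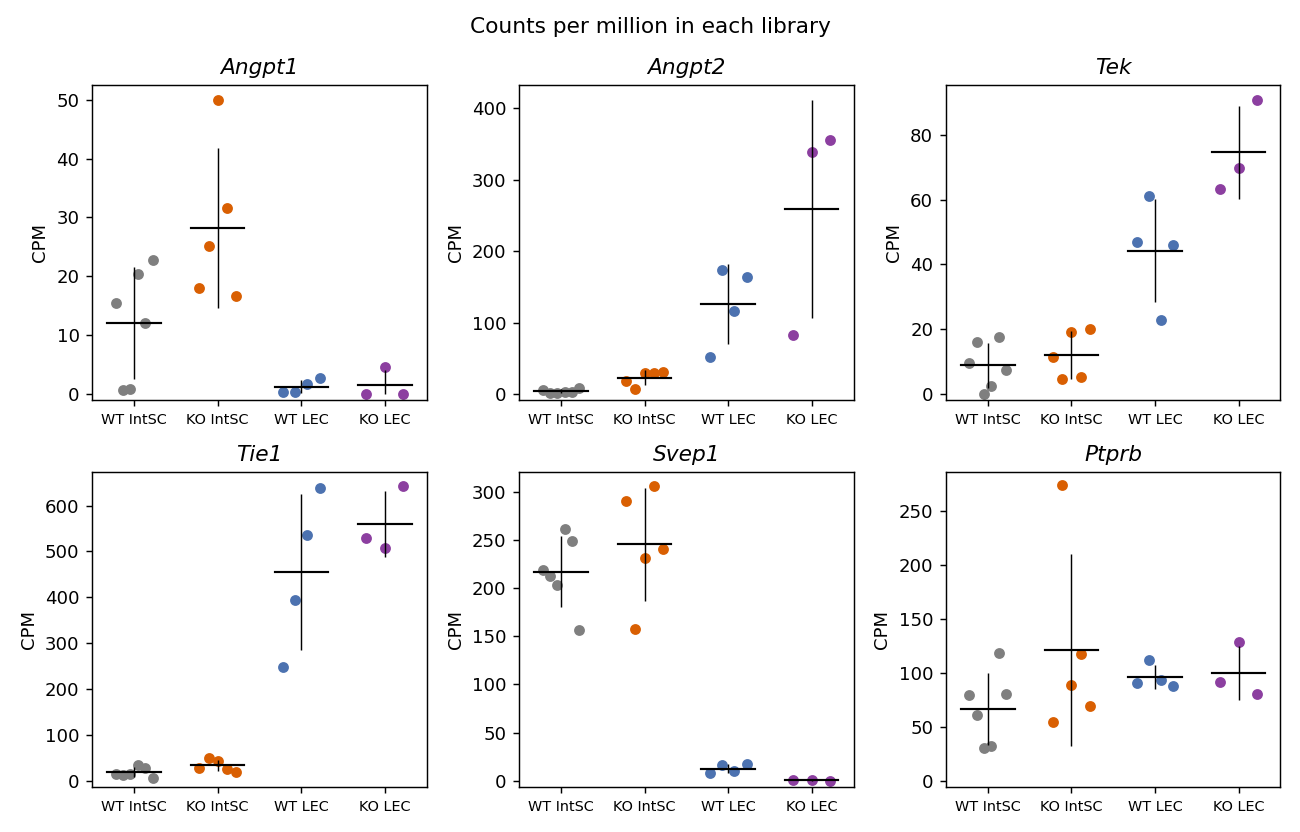
Level of each of the 6 genes in CPM (linear axis, 1 panel per gene with its own scale) in the 18 libraries. Points are libraries, horizontal bars group means and vertical lines the SD, for 6 WT and 5 KO libraries of IntSC and 4 WT and 3 KO libraries of LEC. Angpt2, Tek and Tie1 sit higher in LECs and Svep1 in IntSCs, Svep1 is at 0.419 CPM or less in the 3 KO LEC libraries, and the Ptprb groups overlap.

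Each library was placed on 1 common scale of CPM with TMM factors. Differences between groups were fitted with edgeR on the counts and are given as log2 fold changes with a standard error (SE). Here the SE is the absolute log2 fold change divided by the square root of the F statistic of edgeR's quasi-likelihood test. The reads come from the 3′ end of each transcript, so CPM does not grow with transcript length. Because cells were sorted and RNA pooled, fewer cells of a type in a sort and less RNA per cell cannot be told apart.

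Angpt2 was higher in LECs than in IntSCs, and its mean level in IntSCs was higher in KO than in WT. In WT IntSCs its lowest level was 0.813 CPM, its median 2.52 CPM and its highest 7.81 CPM. In KO IntSCs 1 to 5 it stood at 18.1, 7.40, 29.9, 29.0 and 30.05 CPM. The groups overlapped through KO IntSC 2 alone, which lay below WT IntSC 6 and above the 5 other WT libraries. The means were 3.46 ± 2.85 CPM (SD, n = 6) and 22.9 ± 10.01 CPM (SD, n = 5), and the fitted log2 fold change was 2.73 ± 0.65 (SE).

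In WT LECs 1 to 4, Angpt2 stood at 51.1, 174, 116 and 164 CPM. In KO LECs 1 to 3 it stood at 82.6, 339 and 356 CPM. KO LEC 1 fell among the WT values and the other KO libraries lay above all of them. The means were 126 ± 56.2 CPM (SD, n = 4) and 259 ± 153 CPM (SD, n = 3), with a log2 fold change of 1.12 ± 0.49 (SE). The KO minus WT difference in IntSCs exceeded that in LECs by 1.70 ± 0.84 (SE) on the log2 scale.

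LECs of both genotypes held more Angpt2 than any IntSC library of the same genotype, by 5.20 ± 0.61 (SE) log2 units in WT and 3.50 ± 0.54 (SE) in KO. The mean Angpt2 level of IntSCs was 2.74% of that of LECs in WT and 8.83% in KO. These shares can be set beside those of 14 endothelial markers, whose median was 0.697% in WT and 1.38% in KO. Of the 14, 8 are the LEC markers, most of which have very low shares. Prox1, the transcription factor that defines LECs, stood at 0.151% and 0.119%, and Cdh5, the junctional cadherin of endothelium, at 4.45% and 11.5%. Of the other general endothelial markers, Pecam1 stood at 6.30% and 18.4%, and Egfl7 at 4.57% and 8.23%. Cldn5 stood at 0.965% and 1.86%, Emcn at 1.68% and 3.54% and Esam at 181% and 458%.

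General endothelial markers were also higher on average in KO than in WT IntSCs, and their part in the Angpt2 level of IntSCs was not tested. The summed level of 6 general endothelial markers (Pecam1, Cdh5, Cldn5, Egfl7, Esam, Emcn) was 221 to 402 CPM in WT and 373 to 999 CPM in KO IntSCs. Of these, Esam was higher in IntSCs than in LECs. Without it, a list chosen after its values were seen, the ranges were 126 to 220 CPM and 208 to 537 CPM. Per 100 CPM of this shorter list, Angpt2 averaged 1.85 ± 1.33 CPM in the WT and 7.78 ± 4.91 CPM in the KO libraries of IntSCs (SD). In LECs the same ratio averaged 2.49 ± 1.08 CPM for WT and 5.66 ± 3.59 CPM for KO (SD). Relative to 100 CPM of LEC markers, Angpt2 averaged 2.43 ± 2.35 CPM in WT and 11.9 ± 6.16 CPM in KO IntSCs. All 14 endothelial and LEC markers had reads in both IntSC groups. KO IntSC 2 held the highest sum of general endothelial markers (999 CPM) and the lowest Angpt2 of the KO IntSCs (7.40 CPM). KO IntSC 4 held the lowest sum of the KO IntSCs (373 CPM) with 29.0 CPM of Angpt2. Among the WT IntSCs, WT IntSC 6 held both the highest sum (402 CPM) and the highest Angpt2 (7.81 CPM). LEC markers summed to 353 CPM in KO IntSC 4. In the other KO IntSCs they summed to 161 to 177 CPM, within the 117 to 250 CPM of WT. Prox1 held 3 reads in each IntSC group.

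**Figure D2:**
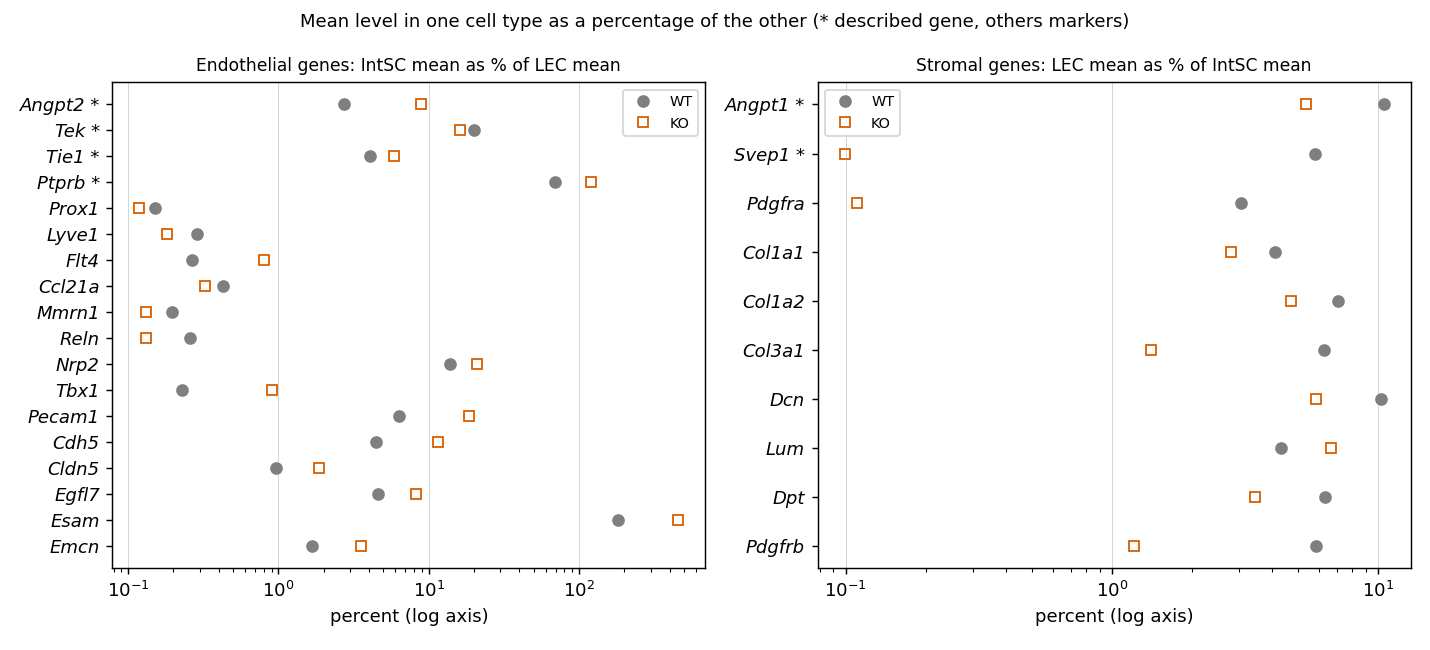
Mean level in one cell type as a percentage of the mean in the other, on a log axis, for WT (filled grey circles) and KO (open orange squares). The left panel gives IntSC as a percentage of LEC for 4 of the 6 genes (starred) and 14 endothelial markers, and the right panel LEC as a percentage of IntSC for Angpt1 and Svep1 (starred) and 8 fibroblast markers. Prox1 stays at 0.151% and 0.119% while Ptprb stands at 69.6% and 121%, and Svep1 goes from 5.77% in WT to 0.0991% in KO.

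Angpt1 was higher on average in IntSCs than in LECs. In WT IntSCs its lowest level was 0.688 CPM, its median 13.8 CPM and its highest 22.8 CPM, and WT IntSCs 2 and 3 stood apart from the others with 0.688 and 0.813 CPM. In KO IntSCs 1 to 5 it stood at 17.9, 25.1, 50.02, 31.6 and 16.6 CPM. KO IntSCs 2, 3 and 4 lay above every WT library and the other KO libraries fell among the WT values. Mean levels were 12.0 ± 9.51 CPM (SD, n = 6) and 28.3 ± 13.6 CPM (SD, n = 5), and the log2 fold change was 1.24 ± 0.67 (SE).

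In LECs, Angpt1 was near the counting limit in most libraries. WT LECs 1 to 4 held 3, 3, 18 and 27 reads, or 0.286, 0.371, 1.69 and 2.70 CPM. KO LEC 2 held 44 reads or 4.55 CPM, and KO LECs 1 and 3 held 0 reads, which allows up to 0.419 and 0.373 CPM. The fitted difference between KO and WT was 0.36 ± 2.19 (SE) on the log2 scale and turned to -6.51 without KO LEC 2, so these libraries give no direction. LECs held less Angpt1 than IntSCs, with log2 fold changes of -3.23 ± 1.36 (SE) in WT and -4.19 ± 1.58 (SE) in KO, although WT IntSCs 2 and 3 overlapped the LEC values.

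The balance of the ligands can be read as log2 of (Angpt2 CPM + 1) over (Angpt1 CPM + 1). It averaged -1.15 ± 1.09 (SD, n = 6) in WT and -0.33 ± 0.91 (SD, n = 5) in KO IntSCs. In LECs it averaged 5.82 ± 0.79 (SD, n = 4) in WT and 6.93 ± 1.36 (SD, n = 3) in KO. The highest single value in IntSCs was 0.82 and the lowest in LECs 5.34, so the ratio separated the cell types, whereas WT and KO overlapped within each.

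Tek, the receptor of both ligands, was higher in LECs. WT LECs 1 to 4 stood at 47.0, 61.1, 22.7 and 46.1 CPM and KO LECs 1 to 3 at 63.3, 69.7 and 90.9 CPM. Every KO LEC library lay above every WT LEC library, with 63.3 CPM next to 61.1 CPM at the boundary. The means were 44.2 ± 15.9 CPM (SD, n = 4) and 74.7 ± 14.4 CPM (SD, n = 3), and the log2 fold change was 0.83 ± 0.50 (SE). A separation of this kind in the upward direction was seen for 3.48% of the 10639 genes tested in LECs.

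In WT IntSCs the lowest Tek level was 0 reads in WT IntSC 3, which allows up to 0.407 CPM, the median was 8.41 CPM and the highest 17.5 CPM. In KO IntSCs 1 to 5 Tek stood at 11.3, 4.52, 19.1, 5.37 and 20.1 CPM. Values of both genotypes were interleaved, with means of 8.81 ± 7.03 CPM (SD, n = 6) and 12.1 ± 7.35 CPM (SD, n = 5) and a log2 fold change of 0.45 ± 0.83 (SE). LECs exceeded IntSCs by 2.33 ± 0.86 (SE) log2 units in WT and 2.62 ± 0.57 (SE) in KO. The mean Tek level of IntSCs was 19.9% of that of LECs in WT and 16.2% in KO.

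Tie1, the co-receptor, showed the cell type difference at higher CPM. WT LECs 1 to 4 stood at 248, 395, 535 and 639 CPM and KO LECs 1 to 3 at 529, 507 and 642 CPM. The KO libraries lay within or just above the upper part of the WT range, with means of 454 ± 170 CPM (SD, n = 4) and 559 ± 72.5 CPM (SD, n = 3) and a log2 fold change of 0.38 ± 0.30 (SE).

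In WT IntSCs Tie1 had a lowest level of 5.91 CPM, a median of 15.5 CPM and a highest level of 34.5 CPM. KO IntSCs 1 to 5 stood at 27.9, 48.4, 43.8, 26.1 and 19.4 CPM. KO IntSCs 2 and 3 lay above all WT libraries, the other KO libraries among them, and the log2 fold change was 0.84 ± 0.42 (SE). LECs exceeded IntSCs by 4.62 ± 0.43 (SE) log2 units in WT and 4.08 ± 0.31 (SE) in KO, without overlap. The IntSC mean of Tie1 was 4.07% of the LEC mean in WT and 5.92% in KO, and Cdh5 stood at 4.45% and 11.5% by the same measure. Relative to 100 CPM of the endothelial markers without Esam, Tie1 averaged 11.3 ± 8.79 CPM in WT and 9.48 ± 2.08 CPM in KO IntSCs.

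Ptprb, the phosphatase of Tie2, overlapped between every pair of groups next to each other in level. In WT IntSCs its lowest level was 30.2 CPM, its median 70.3 CPM and its highest 118 CPM. KO IntSCs 1 to 5 stood at 54.6, 275, 88.9, 118 and 69.7 CPM, so that KO IntSC 2 lay far above the rest. WT LECs 1 to 4 stood at 90.7, 113, 93.7 and 87.6 CPM and KO LECs 1 to 3 at 91.7, 129 and 80.6 CPM.

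The log2 fold change of Ptprb was 0.86 ± 0.41 (SE) for KO against WT in IntSCs and 0.31 without KO IntSC 2. It was 0.13 ± 0.35 (SE) in LECs. LECs differed from IntSCs by 0.53 ± 0.36 (SE) in WT and -0.27 ± 0.49 (SE) in KO. KO IntSC 2 also held the highest summed level of the 6 general endothelial markers, 999 CPM against 373 to 714 CPM in the other KO IntSC libraries. Of 9 blood endothelial markers, Cd34 is also a fibroblast gene, and the other 8 (a list chosen after seeing the values) summed to 168 to 353 CPM in WT and 217 to 561 CPM in KO IntSCs and to 483 to 875 CPM in LECs. With Cd34 the ranges were 1264 to 2780, 929 to 1421 and 567 to 1019 CPM. Most of the LEC sum of the 8 was Gpihbp1, with means of 411 CPM in WT and 637 CPM in KO LECs. In IntSCs Gpihbp1 averaged 1.11 CPM in WT and 4.53 CPM in KO. Flt1, Plvap, Vwf, Sox17, Esm1 and Nostrin had higher means in IntSCs than in LECs of the same genotype. Apln averaged 1.36 CPM or less in every group. For each 100 CPM of the 8 markers Ptprb averaged 27.0 ± 13.6 CPM in WT and 35.1 ± 16.3 CPM in KO IntSCs (SD). Vwf, Sox17, Esm1 and Apln were at 0 in all 3 KO LEC libraries. Per 100 CPM of LEC markers Ptprb averaged 44.9 CPM in WT and 63.5 CPM in KO IntSCs and 0.882 and 0.878 CPM in LECs. Per 100 CPM of the endothelial markers without Esam it averaged 35.7 ± 14.8 CPM and 34.2 ± 18.4 CPM in IntSCs and 1.91 ± 0.30 CPM and 2.12 ± 0.70 CPM in LECs.

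Svep1 was abundant in IntSCs of both genotypes. In WT IntSCs its lowest level was 157 CPM, its median 216 CPM and its highest 261 CPM, and KO IntSCs 1 to 5 stood at 291, 158, 231, 306 and 241 CPM. The ranges overlapped, with means of 217 ± 36.9 CPM (SD, n = 6) and 245 ± 58.2 CPM (SD, n = 5) and a log2 fold change of 0.18 ± 0.19 (SE). The 95% interval of this difference, from the SE between libraries, was -0.20 to 0.56.

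In LECs Svep1 was low in WT and close to the counting limit in KO. WT LECs 1 to 4 held 81, 128, 102 and 170 reads, or 7.71, 15.8, 9.57 and 17.0 CPM. KO LECs 1 and 2 held 3 reads each, or 0.419 and 0.310 CPM, and KO LEC 3 held 0 reads, which allows up to 0.373 CPM. All 3 KO libraries lay below all 4 WT libraries, a separation in the downward direction seen for 6.45% of the genes tested in LECs. Over the groups, 6 reads of 23207867 in KO stood against 481 of 38934757 in WT, a 47.8-fold lower share. Its exact 95% interval of 21.8 to 131 covers counting error only and leaves out the spread between libraries. The edgeR log2 fold change was -5.55 ± 2.37 (SE), which rests on the 6 reads of the KO group. Its 95% interval, from the SE between libraries, was -10.2 to -0.90.

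The genotype differences of Svep1 in the 2 cell types differed by 5.78 ± 0.58 (SE) log2 units. This SE comes from the fit over all 4 groups, while that of the LEC fit was 2.37. LECs held less Svep1 than IntSCs by 4.11 log2 units in WT, a log2 fold change of -4.11 ± 0.31 (SE), and the fitted value in KO was -9.90 ± 0.63 (SE). Every value that involves KO LECs rests on the same 6 reads, so the smaller SEs cannot be read as greater precision.

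Fibroblast markers were also lower in KO than in WT LECs. Their summed level was 629 to 2086 CPM in WT and 304 to 571 CPM in KO LECs, with means of 1021 ± 710 CPM (SD, n = 4) and 423 ± 136 CPM (SD, n = 3). The mean LEC level as a percentage of the IntSC mean was 5.77% in WT and 0.0991% in KO for Svep1. For the 8 fibroblast markers it ran from 3.07% to 10.2% in WT, with a median of 6.06%, and from 0.111% for Pdgfra to 6.67% for Lum in KO, with a median of 3.13%. Pdgfra, a receptor of villus fibroblasts, averaged 11.8 ± 10.3 CPM in WT and 0.414 ± 0.130 CPM in KO LECs. WT LEC 1, which held the most fibroblast marker RNA of the LEC libraries, held the least Svep1 of the WT LECs. Per 100 CPM of fibroblast markers Svep1 averaged 1.56 ± 0.17 CPM in WT and 2.32 ± 0.40 CPM in KO IntSCs, and 1.70 ± 1.04 CPM in WT and 0.0721 ± 0.0692 CPM in KO LECs. All 8 fibroblast markers had reads in both LEC groups. The part of stromal RNA in the Svep1 level of LECs was not tested.

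**Figure D3:**
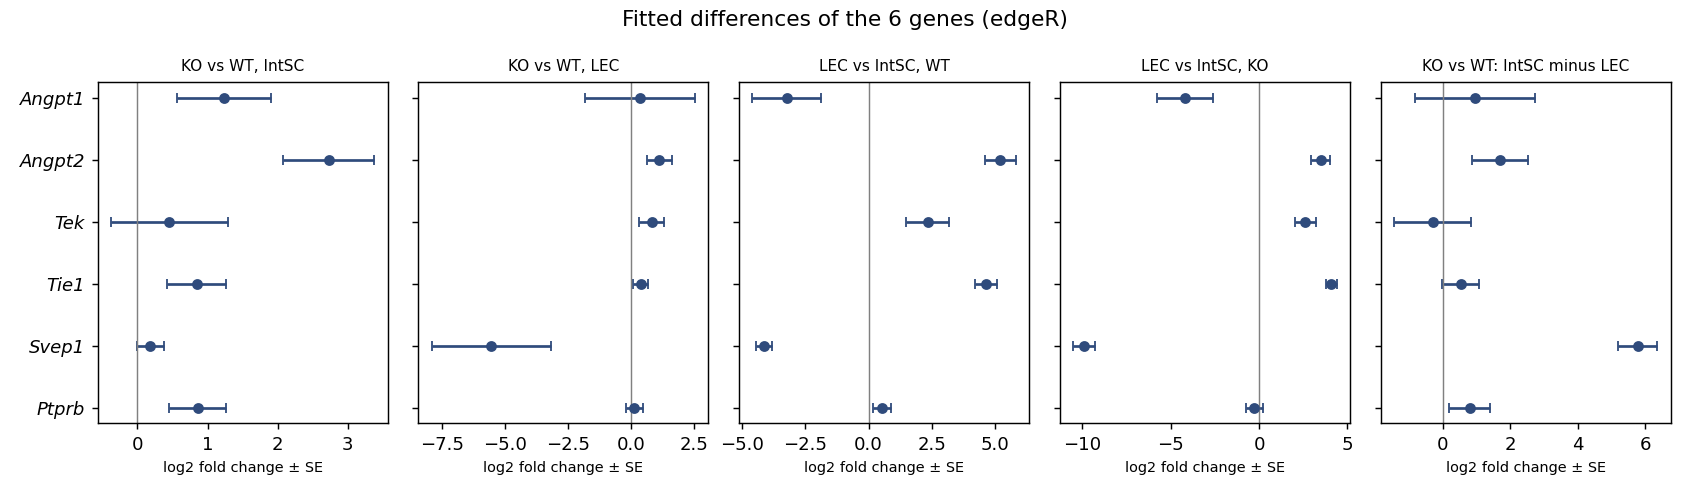
Fitted log2 fold changes of the 6 genes with their SE (edgeR), 1 panel per comparison, each with its own horizontal axis and a line at 0. From left to right the panels give KO against WT in IntSC and in LEC, LEC against IntSC in WT and in KO, and the KO against WT difference in IntSC minus that in LEC. Angpt2 lies at 2.73 in the first panel and Svep1 at 5.78 in the last, and Svep1 and Angpt1 in LECs have the widest error bars of the second panel, 2.37 and 2.19.

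At an edgeR adjusted p under 0.05, 1 of the 6 genes (Angpt2) was called between KO and WT IntSCs, where 1.47% of 12421 genes were called. None was called between KO and WT LECs, where 0.0658% of 10639 genes were called. Between LECs and IntSCs, 3 were called in WT (Angpt2, Tie1 and Svep1) and 4 in KO (these and Tek), against 22.6% of 12203 and 25.9% of 12758 genes. For the difference of genotype effects 1 was called (Svep1), against 1.7% of 14015 genes. Without overlap of any library, 3 genes (Angpt2, Tek and Tie1) stood higher in LECs of each genotype, where 9.65% of genes did so in WT and 11.4% in KO. Svep1 stood lower without overlap in LECs of WT (11.5% of genes), and Svep1 and Angpt1 in those of KO (20.9% of genes). None of the 6 separated KO from WT IntSCs, as 2.83% of genes did. The choice of the genes used these libraries, so nothing is read from these counts. The median log2 fold change of the 6 genes was 0.85 in IntSCs and 0.37 in LECs for KO against WT, beside medians of 0.00 and -0.03 over all genes tested. Nothing is read from these medians either, for the same reason. The median in LECs includes Angpt1, for which the libraries give no direction.

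The count of 1 in IntSCs became 0 with limma-voom and without any 1 library other than WT IntSC 6 or KO IntSC 2, while the log2 fold change of Angpt2 stayed between 2.52 and 3.14 in the 11 fits without 1 library. The count of 0 in LECs became 1 (Svep1) with DESeq2 and in the fit over all 4 groups. Leaving out 1 library at a time, the log2 fold change of Svep1 in LECs stayed between -6.11 and -4.99 and its difference of genotype effects between 5.24 and 6.28.

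Other genes of angiopoietin and Tie signalling were followed in a list of 35. It was made of related ligands, adaptors, the PI3K and Akt branch, Foxo factors, integrins and other partners of Svep1, and proteases that shed receptors. It also held the endothelial genes Cdh5, Kdr and Nos3 and the lymphatic factor Foxc2. These were chosen by their known role and tested with edgeR's quasi-likelihood test and Benjamini-Hochberg adjustment over all genes. Earlier results of these data were known when the list was made, so the shares of the list below are a description only. Between KO and WT IntSCs, 28 could be tested, of which 2 fell, 0 rose and 26 did not pass. The median log2 fold change of the list was 0.14, beside 0.00 for all genes. An unadjusted p under 0.05 was reached by 11 of the 28 genes, or 39.3%, beside 9.81% of all genes.

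Fibroblast markers were on average lower in the same KO IntSCs, with summed levels of 11053 to 16966 CPM in WT and 7585 to 12643 CPM in KO. The mean was lower for 7 of the 8, such as Col1a1 with 1996 CPM in WT and 1205 CPM in KO and Col3a1 with 2271 and 1198 CPM, and higher for Pdgfrb with 485 and 879 CPM. No fibroblast marker was at 0, and their part in the lower levels that follow was not tested.

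Angptl2, a secreted relative of the angiopoietins that does not bind Tie2, fell in KO IntSCs. Its level in WT IntSCs was between 273 and 514 CPM and in KO IntSCs between 161 and 235 CPM. All 5 KO libraries lay below all 6 WT libraries, with a log2 fold change of -0.96 ± 0.20 (SE, adjusted p = 0.0172). The adjusted p was 0.0610 without KO IntSC 2, 0.0614 without KO IntSC 5 and 0.488 in the fit over all 4 groups.

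Pik3r1, the regulatory subunit through which PI3K binds activated receptors, also fell. WT IntSCs held 449 to 689 CPM and KO IntSCs held 247 to 455 CPM. KO IntSC 2 lay just above the lowest WT library, and the log2 fold change was -0.78 ± 0.18 (SE, adjusted p = 0.0318). This call was lost without any 1 of WT IntSCs 1, 3 and 4 or KO IntSCs 1, 3 and 5, where the adjusted p ran from 0.0571 to 0.107, and it was 0.157 in the fit over all 4 groups.

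Itga9, the integrin subunit that binds Svep1, stood at 32.1 to 59.8 CPM in WT IntSCs and at 4.58, 19.1, 20.8, 17.9 and 27.1 CPM in KO IntSCs 1 to 5. The groups did not overlap, the log2 fold change was -1.41 ± 0.37 (SE) and the edgeR adjusted p was 0.0575. A separation in the downward direction was seen for 1.2% of the genes tested in IntSCs. In WT LECs 1 to 4 Itga9 stood at 188, 282, 262 and 319 CPM and in KO LECs 1 to 3 at 161, 120 and 99.1 CPM. These groups did not overlap either, with a log2 fold change of -0.98 ± 0.31 (SE) and an edgeR adjusted p of 0.390. Such a downward separation was seen for 6.45% of the genes tested in LECs. Of the list, Grb2 and Akt2 also lay lower without overlap in KO LECs. The integrin subunit Itgb1 (0.64 ± 0.22), Mmp14 (1.09 ± 0.27) and Angptl4 (1.90 ± 1.01, SE) lay higher without overlap, as 3.48% of genes did.

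Between KO and WT LECs, 28 genes of the list could be tested and none passed with edgeR. DESeq2 called 2 of them and the fit over all 4 groups 2. An unadjusted p under 0.05 was reached by 4, or 14.3%, beside 7.87% of all genes, and the list's median log2 fold change was 0.00, beside -0.03 for all genes. For the difference of genotype effects, none of 33 genes passed with edgeR or in any alternative fit, and 5 had an unadjusted p under 0.05, or 15.2% beside 15.8% of all genes.

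Between LECs and IntSCs of WT mice, 10 of 29 genes of the list were higher in LECs, 6 were lower and 13 did not pass, so that 55.2% were called beside 22.6% of all genes. Cdh5, Kdr, Nos3 and Foxc2 are among those higher, and Cdh5 is also in the list of general endothelial markers. The share thus partly restates the cell type, in WT and in KO. Kdr, the main receptor of VEGF-A, was higher in LECs by 5.22 ± 0.33 (SE, adjusted p = 2.99e-08), Cdh5 by 4.49 ± 0.76 (SE, adjusted p = 0.000612) and Itga9 by 2.47 ± 0.25 (SE, adjusted p = 2.70e-06) log2 units. Foxc2, a transcription factor of lymphatic valves, was higher by 6.53 ± 0.71 (SE, adjusted p = 6.11e-06). Pear1, a transmembrane receptor, was higher by 2.19 ± 0.24 (SE, adjusted p = 8.42e-06). Angptl2 was lower in LECs, with a log2 fold change of -3.57 ± 0.40 (SE, adjusted p = 7.98e-06), as were Akt2 at -2.37 ± 0.27 (SE, adjusted p = 1.10e-05) and Pik3r1 at -2.10 ± 0.21 (SE, adjusted p = 2.36e-06).

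In KO mice 9 of 29 genes of the list were higher in LECs, 5 were lower and 15 did not pass, so that 48.3% were called beside 25.9% of all genes. Kdr stood at 4.08 ± 0.32, Cdh5 at 3.11 ± 0.38, Itga9 at 2.82 ± 0.48, Pear1 at 1.82 ± 0.31 and Adam10, a protease that sheds membrane proteins, at 2.26 ± 0.40 log2 units (SE). Angptl1 stood at -8.24 ± 1.44, Angptl2 at -3.41 ± 0.49 and Akt2 at -3.28 ± 0.29 (SE). The adjusted p of these 8 genes in edgeR ran from 1.33e-05 for Kdr to 0.00265 for Adam10. Angptl1 held 0 reads in KO LECs 2 and 3, so its fitted value rests on very few reads.

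**Figure D4:**
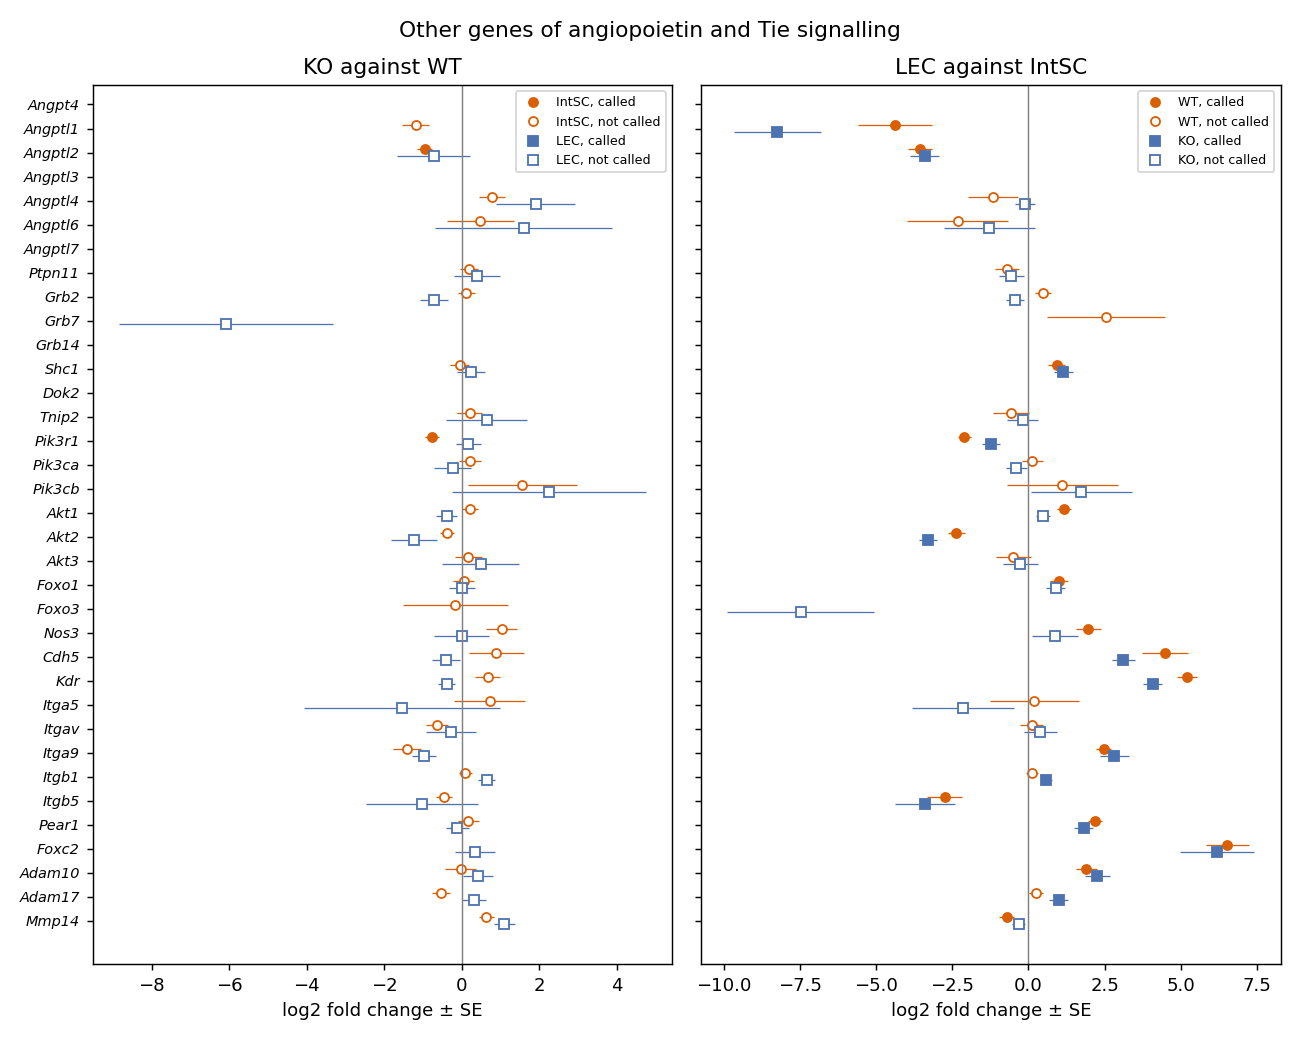
Log2 fold changes with SE (edgeR) of the other 35 genes of angiopoietin and Tie signalling. The left panel gives KO against WT in IntSC (circles) and LEC (squares), the right panel LEC against IntSC in WT (circles) and KO (squares). Filled symbols passed an adjusted p under 0.05 and a missing symbol was not tested. On the left Angptl2 at -0.96 and Pik3r1 at -0.78 in IntSC are the filled symbols, while on the right 16 genes are filled in WT and 14 in KO.

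The genes whose log2(CPM + 1) followed each of the 6 most closely within a cell type were listed from all genes with a mean of at least 5 CPM. Among 10573 genes over the 11 IntSC libraries, Angpt2 was closest to Thsd1 (Pearson's r = 0.93), Frmd6 (0.92) and Slc25a20 (0.92). Angpt1 was closest to Gcdh (0.96), Isyna1 (0.96) and Tm9sf1 (0.95), and Svep1 to Ccl11 (0.92), Tap2 (0.91) and 1200014J11Rik (0.90). Among 9897 genes over the 7 LEC libraries, Tek was closest to H2-Ke6 (0.98), Cpsf6 (0.97) and Fam3c (0.95), and Tie1 to Ppp2ca (0.96), Cutc (0.96) and Lpin1 (0.95). Svep1 in LECs was closest to Ifi203 (0.99), Slc2a9 (0.99) and 5430431A17Rik (0.99). Angpt2 in LECs was closest to Ubr3 (0.96), Igflr1 (0.95) and Ngfrap1 (0.94), and Ptprb to Oser1 (0.96), Aspm (0.96) and Ska1 (0.96). The values of a gene pair share library, depth and genotype group, the points are few, and these coefficients describe likeness only.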

How the data were processed

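RNA of sorted IntSCs and LECs was made into QuantSeq 3′ libraries and sequenced by the authors, who deposited 1 table of raw read counts per gene for each of 18 libraries (23282 gene rows, mm10). The submitters' processing notes name Bowtie2 and edgeR, the study's methods TopHat and Cufflinks. The counting program, annotation and strand setting are not given in the sources used here. By the study's methods cells were depleted of CD45+ and CD326+ cells, those for IntSCs also of CD31+ cells, the sorting antibodies included CD31 and Podoplanin, and purity was not assessed. Rn45s, a ribosomal RNA precursor, took 7.02 to 24.4% of counts.

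From the deposited counts, levels were computed as CPM with TMM factors over all 18 libraries. Differences were fitted with edgeR 4.0.16 in R 4.3.3 (robust quasi-likelihood fit, filterByExpr, TMM), with only the compared groups in each fit and all 4 groups for the difference of genotype effects. Adjusted p-values (Benjamini-Hochberg) under 0.05 over all genes tested were called. DESeq2 1.42.0, limma 3.58.1 (voom), other size factors, other count filters, a replicate block, a joint fit and leaving out each library were alternatives. The edgeR step was also run on simulated counts, with the same spread for all genes and changes only in genes of higher level. That run does not cover genes near the counting limit, such as Svep1 and Angpt1 in LECs. Same-numbered libraries deviated together weakly or not at all, so the numbers were not taken as pairs. Between genotypes, their correlations were -0.0603 to 0.0560 in IntSCs and -0.0169 to 0.0147 in LECs. Between IntSCs and LECs they were -0.0205 to 0.0316 in KO. In WT they were all positive, 0.0197 to 0.0332, beside a mean of -0.00505 for libraries of other numbers.

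The 6 genes, the marker lists and the list of 35 were chosen with earlier results of these data known. Of the list, at most 8 called genes per comparison with the smallest p were named. The genes targeted, overlapping genes and the 3 most alike genes of each were also named. Counts of whole lists stand beside the share of all genes, without a set test.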

Additional observations from a re-analysis of the deposited data

Results flagged for a closer look

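A sample standing far from its group was looked for in 39 groups of 4 to 6 values. The measure was the gap to the nearest other sample as a share of the group's range (Dixon's criterion at 95%). KO LECs, with 3 libraries, were too few to be screened. It marked 7, where chance alone gives about 1.95 if values are normal and independent, which CPM of these libraries need not be. Ptprb in KO IntSC 2 was at 275 CPM against 54.6 to 118 CPM in the other KO IntSCs, a gap of 0.713 of the range. The remaining 6 concern summed marker levels. LEC markers in KO IntSC 4 were at 353 CPM against 161 to 177 CPM (gap 0.915). General endothelial markers in WT IntSC 4 were at 221 CPM against 338 to 402 CPM (gap 0.648). Fibroblast markers in WT LEC 1 were at 2086 CPM against 629 to 688 CPM (gap 0.959), and smooth muscle and pericyte markers in the same library at 315 CPM against 173 to 187 CPM (gap 0.898). Epithelial markers in WT IntSC 6 were at 103 CPM against 0 to 16.5 CPM (gap 0.84). Leukocyte markers in WT IntSC 4 were at 0.337 CPM against 11.4 to 14.0 CPM (gap 0.811).

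The log2 fold change of Svep1 for KO against WT in IntSCs minus that in LECs was 5.78 ± 0.58 (SE) in edgeR, past the threshold by which such differences were listed. Svep1 was chosen with these values known, so the value is a description. It rests on 0 to 3 reads in each KO LEC library.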

How the results depend on the processing

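No difference of the 6 genes that was called changed sign in any alternative, and nothing was counted as reversed. Genes called between KO and WT were 183 in IntSCs and 376 with DESeq2 or 27 with all 4 groups in 1 fit (81.5% higher, against 57.9%). In LECs they were 7 (42.9% higher) and 32 without a count filter, 20 with a mean count of at least 10, 309 with DESeq2 (27.2% higher), 12 with limma-voom (66.7% higher), and 538 with all 4 groups in 1 fit (22.7% higher). With RLE factors 50.0% of the LEC calls were higher. DESeq2 called 5 genes of the pathway list in IntSCs and 2 in LECs, and all 4 groups in 1 fit 0 and 2. The difference of genotype effects had 238 calls, 1023 with DESeq2 and 143 with limma-voom. With limma-voom the log2 fold change of Angpt1 moved to -1.69 between KO and WT LECs, to -6.58 between LECs and IntSCs of KO and to 3.87 for the difference of genotype effects. The median log2 value over all genes was 0.24 for the difference of genotype effects (0.13 with RLE factors, 0.44 with limma-voom) and -0.21 between LECs and IntSCs of KO (-0.94 with limma-voom), and log2 differences there are to be read relative to it.

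The replicate number as a block gave 122 calls in IntSCs, 3 in LECs, 1596 and 895 between LECs and IntSCs in WT and KO, 16 for the difference of genotype effects, and 6 genes of the pathway list between LECs and IntSCs in KO. Under the block Angpt1 stood at -2.65 in LECs, -7.28 between LECs and IntSCs in KO and 5.32 for the difference of genotype effects. Angpt2 in IntSCs (log2 fold change 3.31), Tek between LECs and IntSCs of KO and Pik3r1 in IntSCs lost their calls.

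Leaving out each library in turn gave 99 to 186 calls in IntSCs, 0 to 2 of the pathway list there, 0 to 16 in LECs and 161 to 461 for the difference of genotype effects. Svep1 ranged from -6.11 to -4.99 in LECs, from -10.39 to -9.36 between LECs and IntSCs in KO and from 5.24 to 6.28 for the difference of genotype effects. Angpt1 ranged from -6.51 to 0.94 in LECs, where it could not be tested without WT LEC 3 or 4, from -10.7 to -3.61 between LECs and IntSCs in KO and from 0.28 to 7.53 for the difference of genotype effects. The values of -6.51, -10.7 and 7.53 were reached without KO LEC 2. Counts of 0 to 3 reads limit Svep1 and Angpt1 in LECs.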
